A study of Caenorhabditis elegans with 2 samples.

Results

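The genes described here are named for proteins of the cytosolic ribosome of Caenorhabditis elegans. They were chosen by name: every gene whose worm symbol begins with rpl- (large subunit) or rps- (small subunit) was translated to its sequence name, and the deposited clusters of reads that overlap an exon or a non-coding transcript of such a gene were collected. This gave 81 genes of the 20276 compared, 49 of the large and 32 of the small subunit. Of these, 78 carry such a symbol in the reference gene table and 3 only in the deposited list (rps-0, rps-30 and rpl-24.2). Together they had 662 of the 51569 deposited clusters, 49661 of which lie on chromosomes. Of the 662, 605 overlapped an exon in sense, 55 overlapped an exon in antisense, and 2 lay in an intron of a non-coding transcript of rpl-3.

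Small RNAs were sequenced from whole worms of the strain fem-1; the gene of that name acts in sex determination, and hermaphrodites that lack it make no sperm. The series holds 2 libraries, both from this strain, with 1 library in each group. The monophosphate library was prepared by the standard ligation, which takes RNAs with a 5′ monophosphate. The polyphosphatase library, treated so that triphosphate-bearing secondary siRNAs would also be ligated, was not analysed here. The labels give neither the allele nor the stage or temperature of the worms, and no wild-type worms were among the groups used. All values therefore describe 1 library. There was no replicate and no test between conditions, and the 95% intervals given are exact and reflect counting error alone. In RNA from whole worms, fewer cells of a type and less RNA per cell cannot be told apart.

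A eukaryotic ribosome has a small subunit, which decodes the mRNA, and a large subunit, which joins the amino acids. Each is built from ribosomal RNA and a single copy of most of its proteins, and the genes for these proteins are strongly transcribed in growing tissue, the germ line included. In worms many of them also carry snoRNAs, guides for the chemical modification of ribosomal RNA, inside their introns. Small RNA libraries can hold pieces of abundant mRNAs in the sense direction beside siRNAs, which are antisense to their target.

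The list held 1412353 reads on chromosomes, selected for a length of 18 to 26 nt, so that a cluster wider than 26 nt is a run of several overlapping reads. Sense exon clusters of all genes held 70747 reads. The 31 major sperm protein genes, which are transcribed in germ cells that form sperm, had 0 reads in all, where a count of 0 allows up to 3 counts. The placement of reads from related copies was not tested for these genes.

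Nearly every ribosomal protein gene was represented by sense reads. At least 1 sense exon read was found on 80 of the 81 genes (98.8%), whereas 36.0% of all genes compared had one. At least 10 sense reads were found on 75 (92.6%), whereas 7.17% of all genes reached that number. All 32 small-subunit genes and 43 of the 49 large-subunit genes had at least 10. The gene without a read was rpl-42, for which 0 reads allow up to 3 counts.

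In sum these genes held 4898 sense exon reads (95% Poisson interval 4762 to 5037), or 6.92% (6.74 to 7.11) of the sense exon reads of all genes and 0.347% of the reads on chromosomes. They supplied 29 of the 100 genes with the most sense reads and 10 of the leading 50. The reads came from 4380 distinct sequences, which is 89.4 per 100 reads, close to the 86.6 in sense exon clusters of other genes. The largest cluster held 61 reads. Counted once each, their clusters made up 1.72% of the sense exon clusters. The share by reads was therefore larger than the share by clusters, and it fell to 0.972% among reads in clusters of 18 to 26 nt.

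The subunits had similar numbers of reads per gene. Read counts per gene are totals that were not corrected for gene length, because coding lengths were not used here. Large-subunit genes had a median of 50 sense reads (quartiles 32 and 82, range 0 to 181) and a mean of 59.7. Small-subunit genes had a median of 55.5 (quartiles 42.25 and 80, range 11 to 138) and a mean of 61.7. The ratio of the medians, large over small, was 0.901, and the small-subunit range lay inside that of the large subunit. The large subunit held 2923 reads (2818 to 3031) and the small 1975 (1889 to 2064), so 59.7% (58.3 to 61.1) of the reads fell on the large subunit, which has 60.5% of the genes. On the scale of reads per 100 nt covered by clusters, the medians were 16.5 for the large and 15.7 for the small subunit. The lower end differed, as all 6 genes with under 10 reads have large-subunit names. Each of them is a paralog or near relative of another gene of the set. Among them is rpl-24.2, whose relatives in yeast act in ribosome assembly, not in the finished ribosome.

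**Figure D1:**
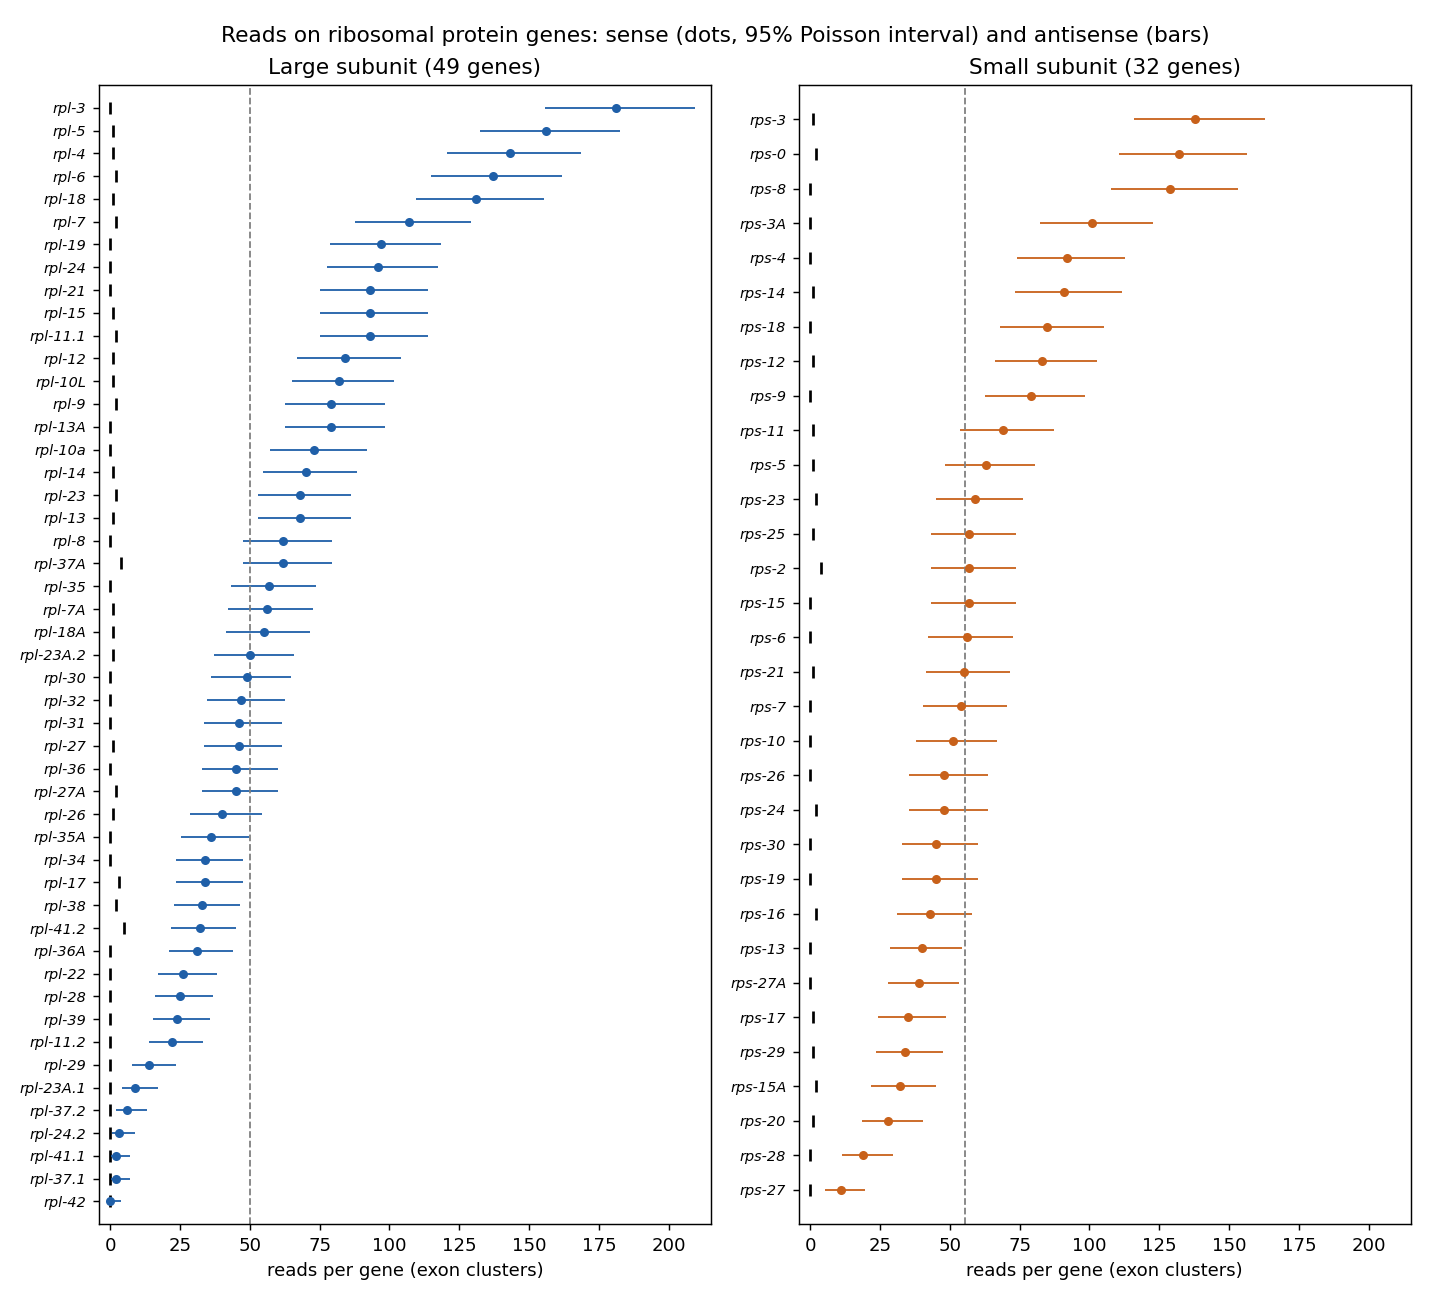
Sense exon reads per gene (dots, with 95% Poisson intervals) and antisense exon reads (short black bars) for 49 large-subunit and 32 small-subunit genes, on a linear axis of reads per gene in the monophosphate library. Dashed lines mark the medians of 50 and 55.5 reads; the intervals of neighbouring genes overlap, and no gene has more than 5 antisense reads.

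Among the large-subunit genes, rpl-3 led with 181 reads (156 to 209) in 23 clusters on chromosome III. Its protein reaches towards the peptidyl transferase centre. The next was rpl-5, whose protein binds 5S ribosomal RNA, with 156 reads (132 to 182) on chromosome II. A single cluster in exon 2, at chromosome II 8570113 to 8570287, held 61 of them and was 175 nt wide. The genes rpl-4, whose product lines the exit tunnel for the growing chain, and rpl-6 followed with 143 and 137 reads, and rpl-18 had 131. The intervals of these 5 genes overlapped from each to the next, so the order of neighbours is not resolved within counting error. The interval of rpl-3 lay just above that of rpl-18 (110 to 155).

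The small-subunit genes were led by rps-3 with 138 reads (116 to 163), on chromosome III. Its protein lies at the mRNA entry channel. Next came rps-0, listed as rpsa-1 in the reference table and needed for maturation of the small subunit in yeast, with 132 reads (110 to 157), and rps-8 with 129 (108 to 153). The genes rps-3A, with 101 reads, and rps-4, with 92, followed. These 5 genes too overlapped from neighbour to neighbour in their intervals, but the interval of rps-4 (74.2 to 113) lay below that of rps-3. Of the 10 members with the most reads, 6 were of the large and 4 of the small subunit, and they held 27.7% (26.4 to 28.9) of the sense reads of all members.

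Per covered length the order changed in part. The densest large-subunit gene was rpl-18, with 28.3 reads per 100 covered nt, then rpl-21 with 26.1, rpl-6 with 24.3, rpl-5 with 22.8 and rpl-30 with 22.4. In the small subunit rps-18 had 26.7 reads per 100 covered nt, rps-8 had 26.6, rps-21 and rps-12 each had 25.8, and rps-3 had 24.4. The spread was narrow beside that of the totals: apart from rpl-42, all members lay between 4.17 and 28.3 reads per 100 covered nt. Covered length rises with the number of reads, so this density is not a level per transcript length.

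In several genes most reads lay in 1 wide cluster. In rps-14, 55 of 91 reads (60.4%) fell in a cluster of 188 nt in exon 3, at chromosome III 7178958 to 7179145. In rpl-37A, a zinc-binding protein, 49 of 62 reads (79.0%) fell in a cluster of 220 nt in exon 1, at chromosome II 14155256 to 14155475, the widest of all members. In rpl-18A, 37 of 55 reads (67.3%) fell in a cluster of 165 nt in exon 2, at chromosome IV 4749338 to 4749502. By contrast the leading cluster of rpl-3 held 16.02% of its reads and that of rps-3A 15.8%.

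The chromosomes carried unequal numbers of these genes. Chromosome I had 24 members with a median of 49.5 reads, II had 11 with 40, III had 19 with 79, IV had 17 with 59 and V had 8 with 38. Only 2 members lie on the X chromosome, rpl-11.2 with 22 reads and rpl-23A.1 with 9. Both are paralogs of an autosomal member with more reads.

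For each pair of related genes the reads of both were set side by side. Reads from near-identical copies can be split or shared by placement, so these counts are uncertain, and like all totals they are not corrected for length. The autosomal rpl-11.1 on chromosome V, whose protein joins RPL-5 on 5S ribosomal RNA, had 93 reads and rpl-11.2 on X had 22, so that rpl-11.1 held 80.9% (72.5 to 87.6). For the protein RPL-23A, an exit-tunnel protein known in the deposited list as rpl-25, the gene rpl-23A.2 on chromosome I had 50 reads and rpl-23A.1 on X had 9, a share of 84.7% (73.0 to 92.8) for the former. In both pairs the interval lies above an equal split.

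In the 4 further pairs the gene with fewer reads had at most 3 reads. The gene rpl-24, listed in the deposited file as rpl-24.1, had 96 reads, and rpl-24.2 had 3. The latter is named rsl-24D1 in the reference table, and its relatives in yeast act in ribosome assembly, not in the finished ribosome. The small protein RPL-41, which bridges the subunits, has the genes rpl-41.2 with 32 reads and rpl-41.1 with 2, so that rpl-41.2 held 94.1% (80.3 to 99.3). For rpl-36A and its paralog rpl-42 the counts were 31 and 0. For rpl-37.2 and rpl-37.1 they were 6 and 2, where the interval of the share, 34.9 to 96.8%, includes an equal split. The single cluster of rpl-37.1 had a uniqueness value of 4, against 24 for the leading cluster of rpl-37.2, and a low value is read here as a less certain placement on the genome.

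The clusters on ribosomal protein genes were wide and rich in reads. They held 8.10 reads per cluster with a median width of 37 nt (range 18 to 220), whereas sense exon clusters of other genes held 1.91 reads with a median of 22 nt. Clusters of 18 to 26 nt, the length of a single read, made up 31.4% of the members' clusters and 86.6% of those of other genes. Clusters of 1 read made up 19.0% and 77.3%. By reads, 6.96% of the members' reads lay in clusters of 18 to 26 nt, 27.9% at 27 to 50 nt, 46.0% at 51 to 100 nt and 19.2% in wider ones. In other genes the shares were 52.8%, 20.7%, 9.26% and 17.3%. The number of reads on a gene moves with the width of its clusters, and its part in this difference was not tested.

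Within the members the subunits differed mainly in the middle and the upper widths. Clusters of 27 to 50 nt held 23.3% of the large-subunit reads and 34.6% of the small-subunit reads. Clusters wider than 100 nt held 23.4% and 12.96%. At 51 to 100 nt the shares were 46.4% and 45.3%, and at 18 to 26 nt they were 6.84% and 7.14%. Only 24 large-subunit and 10 small-subunit clusters were wider than 100 nt, and with 1 library no test of this difference was made.

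**Figure D2:**
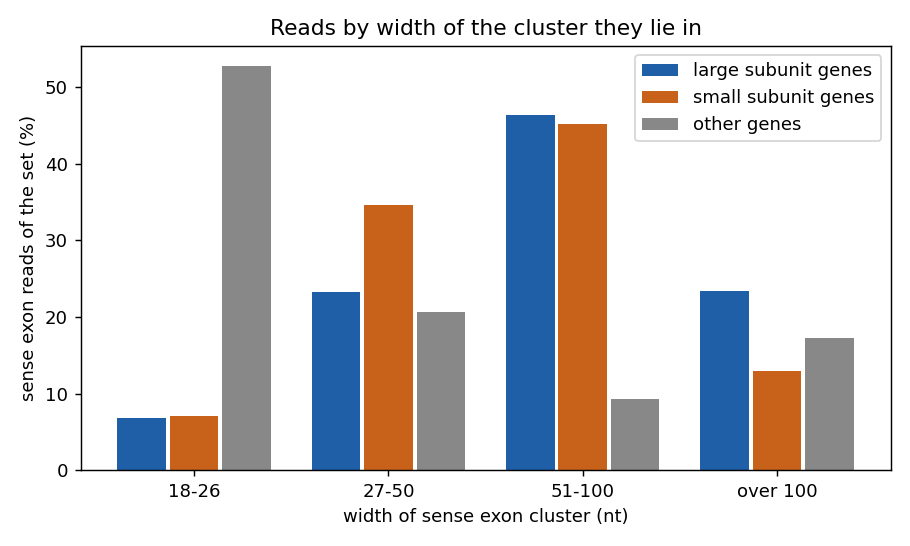
Percent of sense exon reads that lie in clusters of 18-26, 27-50, 51-100 and over 100 nt, for large-subunit genes (blue), small-subunit genes (orange) and other genes (grey). In both subunits the largest share of reads is at 51-100 nt (46.4% and 45.3%), whereas other genes have 52.8% at 18-26 nt.

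Single-sequence clusters, those made of 1 distinct sequence, show the length of the reads directly. Among the 123 such sense clusters of the members, 48.0% were 18 to 20 nt wide, 28.5% (20.7 to 37.3) were 21 to 23 nt and 23.6% were 24 to 26 nt. Among the 27596 of other genes the shares were 40.8%, 33.3% and 25.9%. The share at 21 to 23 nt in other genes lies within the members' interval, so no difference in length was detectable among these clusters. All 123 clusters of the members were 18 to 26 nt wide, and clusters of that width held 6.96% of the members' sense reads. The lengths of single reads in the wider clusters were not measured. No width stood out in sense in either set.

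The members' reads reached the ends of the transcripts more often than those of other genes. Clusters touching a stop codon held 8.25% of the members' sense reads and 1.41% of those of other genes, and clusters touching the 3′ UTR held 10.96% and 5.75%. At the other end, clusters touching the 5′ UTR held 6.90% and 3.09%. Wide clusters touch more features by their width alone, so the comparison was repeated on clusters of 18 to 26 nt. There 18.4% (13.2 to 24.7) of the members' clusters and 7.07% of the others touched the 3′ UTR, 9.47% (5.71 to 14.6) and 3.01% the 5′ UTR, and 85.8% and 94.1% the coding sequence. In both widths coding sequence took the largest part. UTRs and coding sequences differ in length between genes, and the part of length in these shares was not tested.

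Antisense reads were few on these genes but present on many of them. At least 1 antisense exon read was found on 39 of the 81 members (48.1%), 23 of the large and 16 of the small subunit, whereas 16.9% of all genes compared had one. Among genes with at least 10 sense reads the shares were closer: 39 of 75 members (52.0%, 40.2 to 63.7) and 798 of 1378 other genes (57.9%, 55.3 to 60.5), and the latter share lies within the members' interval. The members held 63 antisense reads in 55 clusters, of which 48 were a single read. Per gene this was 0.778 antisense reads, and 0.569 in other genes. The latter mean covers all 20195 other genes, whatever their sense reads, so it does not compare genes of like depth.

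Because sense reads were many, the antisense share of exon reads was low, at 1.27% (0.977 to 1.62) in the members and 14.8% (14.6 to 15.1) in other genes. It was 1.32% in the large and 1.20% in the small subunit. The shares lay further apart in wide clusters than in narrow ones. Among clusters wider than 26 nt, 2 of the members' 4559 exon reads were antisense (0.0439%), and 10.3% of those of other genes. Among clusters of 18 to 26 nt the shares by reads were 15.2% (11.8 to 19.1) and 18.5%, and the latter lies within the members' interval. With each cluster of that width counted once, the order was reversed. The antisense shares were then 22.1% (17.1 to 27.9) in the members and 16.1% in other genes, which lies below the members' interval.

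In length the single-sequence antisense clusters differed from the single-sequence sense ones. Of the 50 single-sequence antisense clusters of the members, 40% (26.4 to 54.8) were 22 nt wide and 20% were 21 nt wide, and 66.0% (51.2 to 78.8) were 21 to 23 nt, whereas 28.5% (20.7 to 37.3) of the sense ones were. In other genes 31.2% of the antisense clusters were 22 nt, 21.3% were 21 nt and 61.5% were 21 to 23 nt, within the members' intervals. At 26 nt, the length of the siRNAs that the Argonaute ERGO-1 binds in worms, there were 2 of the 50, 1 each in rpl-14 and rpl-37A. This is 4% (0.488 to 13.7). In other genes 1.67% were 26 nt wide, which lies within the members' interval. No antisense cluster of the members, with 63 reads in all, had an edit to the genome. The antisense clusters of other genes had 1129 edits and 11458 reads, and this difference was not tested.

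**Figure D3:**
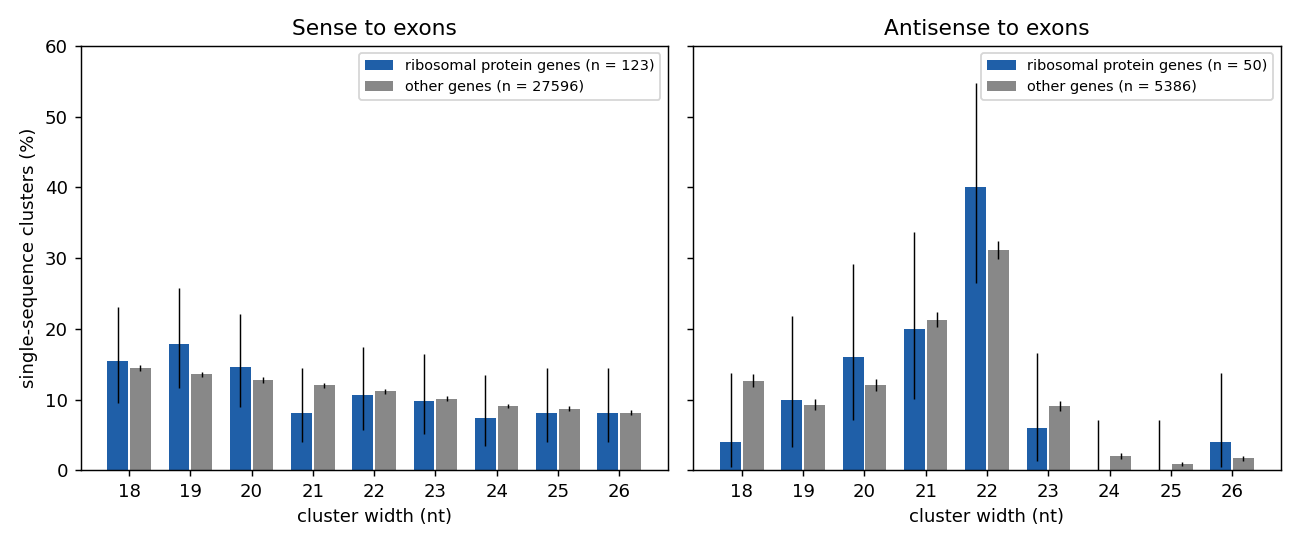
Width in nt of clusters made of 1 distinct sequence, as percent of such clusters with 95% Clopper-Pearson intervals, in sense (left) and antisense (right) to exons, for ribosomal protein genes (blue, 123 and 50 clusters) and other genes (grey). In antisense both sets are highest at 22 nt (40% and 31.2%); in sense neither has a peak there.

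The antisense reads were spread thinly over the genes. Of the 39 members with any, 23 had 1 read and 12 had 2, namely rpl-6, rpl-7, rpl-9, rpl-11.1, rpl-23, rpl-27A, rpl-38, rps-0, rps-15A, rps-16, rps-23 and rps-24. Over 2 reads were found on 4 members. The most, 5, lay on rpl-41.2, and all of them also lie in sense to exons of zig-7, an immunoglobulin-domain gene on the opposite strand, so they cannot be assigned to an antisense RNA of rpl-41.2. Without such overlaps the members had 58 antisense reads, or 1.17% of exon reads. The genes rpl-37A and rps-2 had 4 each and rpl-17 had 3. On rps-2, whose protein lies at the mRNA entry channel, the 4 reads fell in 4 separate clusters of 18 to 22 nt at chromosome IV 7925446 to 7926292.

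Non-coding transcripts are annotated for 6 of the members, all of the large subunit. Clusters over their exons numbered 54 with 428 reads, but 50 of the clusters also overlap a coding exon of the same gene, so the reads cannot be given to the non-coding form. The counts were 181 for rpl-3, 84 for rpl-12, whose protein sits at the base of the stalk, 73 for rpl-10a, 56 for rpl-7A, 32 for rpl-41.2 and 2 for rpl-41.1. In rpl-41.1 and rpl-41.2 the deposited annotation names a non-coding form alone, and these account for the 34 reads without a coding exon.

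Some clusters lie in exons that not all forms of a gene share. In rpl-3 a group of 7 clusters with 81 reads lies in exons of some forms that are introns of another, but all 23 exon clusters of rpl-3 also overlap a coding exon, so they do not tell coding from non-coding forms. In 2 of its clusters, at chromosome III 3868304 to 3868326 and 3868394 to 3868416, the exon belongs to a single isoform, with 1 read each. In rpl-10a, 2 clusters with 17 and 2 reads lie in exons of some of its forms, and in rpl-7A a cluster with 4 reads lies in an exon of a single form. A further pair of narrow clusters lies in intron 3 of rpl-3, at III 3869069 to 3869090 (22 nt) and 3869108 to 3869131 (24 nt), with 6 reads each. These are low counts: a count of 6 is small beside the 181 exon reads of the gene.

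Introns of the members held reads of a different kind. In sense they had 44 clusters with 527 reads, of which 35 clusters with 389 reads are annotated as snoRNA. These belong to 18 named snoRNAs inside 12 members, 7 of the large and 5 of the small subunit, and they made up 7.73% of the 5032 snoRNA reads of the library. Their median width was 37 nt. Over all 44 intron clusters the reads were more repetitive than the exon reads, with 54.8 distinct sequences per 100 reads against 89.4. The 44 clusters include an unannotated one in rpl-8 with 101 reads and 15 distinct sequences, whose placement is uncertain, so this is not a value for snoRNAs alone.

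The snoRNA with the most reads was H06I04.8 in intron 2 of rps-27A, a gene that encodes a ribosomal protein fused to a ubiquitin-like domain and is named ubl-1 in the deposited list. It had 84 reads (67.0 to 104.0) in a single cluster of 78 nt at chromosome III 3068796 to 3068873, more than the 39 reads of the exons of its host. The snoRNA Y24D9A.9 in intron 2 of rpl-7A had 76 reads in a cluster of 159 nt at chromosome IV 4390081 to 4390239, and the exons of that host had 56. The uniqueness value of this cluster was 4, so its placement is less certain. In the other 10 hosts the snoRNA reads were fewer than the exon reads: 47 and 83 in rps-12, 44 and 137 in rpl-6, 39 and 45 in rpl-27A, 27 and 93 in rpl-15, and 20 and 40 in rps-13. The remaining hosts were rps-23 with 18, rpl-26 and rps-29 with 12 each, rpl-7 with 7 and rpl-24 with 3 snoRNA reads. The genes rpl-3, rpl-5 and rps-3, among the leading members by exon reads, had no snoRNA reads.

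**Figure D4:**
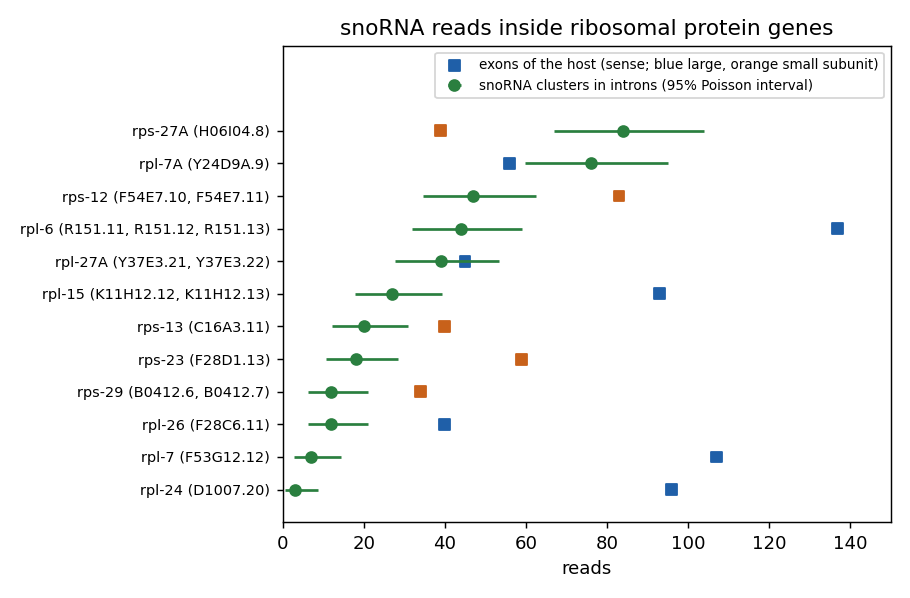
Reads in intron clusters annotated as snoRNA (green dots, 95% Poisson intervals) and sense exon reads of the host gene (squares, blue for large-subunit and orange for small-subunit hosts) for the 12 hosts, with the snoRNA names in parentheses. In rps-27A and rpl-7A the snoRNA reads (84 and 76) exceed the exon reads (39 and 56), in the other 10 they do not.

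A miRNA annotation occurs in a single member. Intron 3 of rpl-24 holds mir-353, with 7 reads in 2 clusters of 21 and 24 nt, and beside them an unannotated cluster of 25 nt with 10 reads. The exons of rpl-24 had 96. Of the remaining intron reads, 107 lay in 2 clusters in intron 1 of rpl-8, whose protein RPL-8 helps to shape the peptidyl transferase centre. The larger of them was 27 nt wide at chromosome V 20475494 to 20475520 and held 101 reads, more than the 62 on the exons of the gene. Its uniqueness value was 5 and it had 15 distinct sequences and 3 edits. It ranked at 2 by reads among 970 unannotated intron clusters of all genes. The smaller, of 38 nt at 20475394 to 20475431, held 6 reads with a uniqueness value of 8. With values this low, the placement of these reads in rpl-8 is uncertain.

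Other genes of translation were set beside the members by their sense exon reads, again as totals per gene. The 4 ribosomal stalk proteins, which recruit elongation factors to the ribosome, had 420 reads with a median of 49.5: rplp-0 had 307, more than any member, rplp-1 had 76, rplp-2.1 had 23 and rplp-2.2 had 14. The scaffold protein rack-1 on the small subunit had 151 reads, and the ubiquitin fusion ubq-2, which encodes a large-subunit protein, had 34. These lie inside the range of the members except for rplp-0. The mitochondrial ribosomal proteins were far lower: 54 of 71 had a read, 1 had at least 10, and the median was 2 reads with a highest count of 14 in mrpl-44, followed by 9 in mrpl-45.

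The factors that work on the ribosome had medians above and below those of the members, with ranges that overlapped. The 6 elongation factor genes all had at least 10 reads, with a median of 99.5 and a range of 20 to 716. Among them eef-1A.1, which brings aminoacyl-tRNA to the ribosome, had 716 reads and eef-2, which moves the ribosome along the mRNA, had 340. Of 33 initiation factor genes 30 had a read and 11 had at least 10, with a median of 5 and a highest count of 23 in both eif-3.C and iff-1, above the 20 of the lowest elongation factor gene, eef-1B.2. No test of these differences was made. The median over all genes compared was 0. The medians of the large-subunit and small-subunit genes, 50 and 55.5, lay between those of the initiation and the elongation factors.

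**Figure D5:**
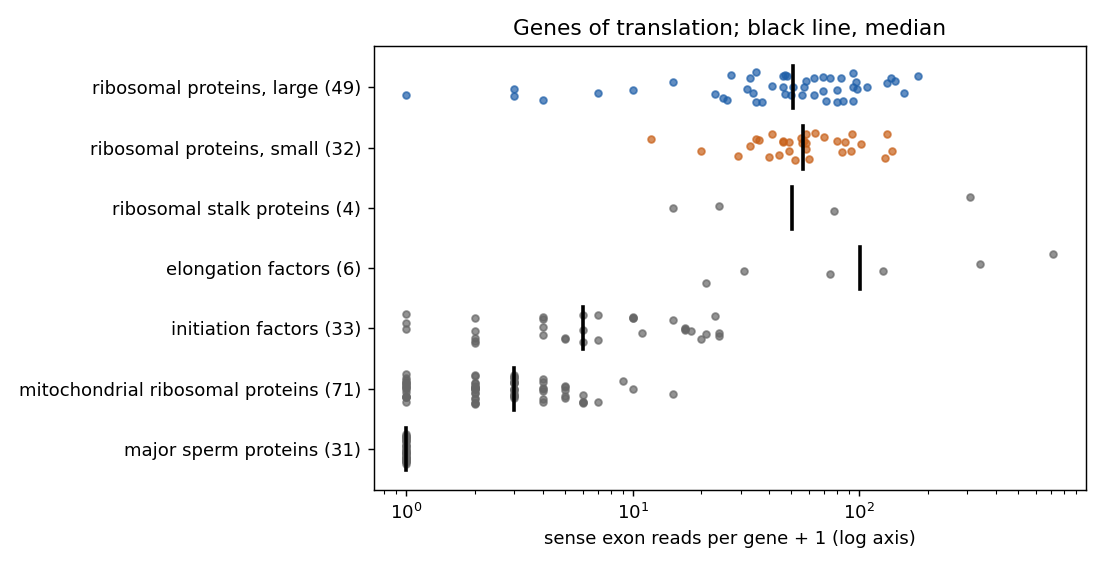
Sense exon reads per gene plus 1 on a log axis for large-subunit and small-subunit ribosomal proteins and other sets of translation genes, with the major sperm protein genes below; each point is a gene, jittered vertically, and black lines are medians. The medians are 50 and 55.5 reads for the members, 99.5 for elongation factors, 5 for initiation factors, 2 for mitochondrial ribosomal proteins and 0 for major sperm proteins.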

How the data were processed

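The labels describe small RNA libraries from TRIZOL-extracted total RNA of whole fem-1 worms. Alignment software in the submitters' processing notes is Bowtie2 2.1.0. The genome build, annotation release and read filters are not given in the sources used here. In the authors' deposited list, whose abbreviated name matches the title of the monophosphate library alone, there are clusters of overlapping reads of 18 to 26 nt, each supported by 1 library. Its attributes give raw read counts per cluster, distinct sequences, width, edits, uniqueness of placement and annotation, with no normalization. A deposited column counts conversion events and repeats an attribute of the same name on each of 51569 lines. The deposited score column, an entropy, was not used.

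Symbols were taken from the WBcel235 RefSeq gene table, used for names only, and from the deposited list. Members were matched by exon names, since names without an exon number may stand for neighbouring genes; a cluster that names several genes counts for each. Coordinates are those of the deposited list, counted from 1. Sense and antisense follow its annotation. Coding lengths were not used here, so the subunits were compared by reads per gene instead of reads per kb.

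Counts have exact Poisson and shares exact Clopper-Pearson 95% intervals (Python 3.11.15, pandas 2.3.3, SciPy 1.17.1, NumPy 2.4.6, matplotlib 3.10.9). As the reads carry no molecular identifiers and may be copies of each other, the intervals, and the limit of 3 counts where none was seen, cover only counting error. The parsing of annotations was tested on simulated data. The total of 1417144 reads, 1412353 of them on chromosomes, is that of a length selection and not the library depth. The remaining reads lie in clusters placed on a sequence named markov in the deposited list, which is no chromosome. Those clusters were left out of the read counts of genes. How many clusters of a single read on chromosomes are misplaced was not tested.

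The members and lists were chosen with earlier results of these data known. Named were, in each subunit, the 5 genes with the most reads and the 5 densest per covered length, the members with the most antisense reads, those with a non-coding transcript, paralog pairs and members without reads. Other genes of translation were named as the 2 leading of each list. The genes rps-14, rpl-37A, rpl-18A, rpl-14 and rpl-8, the pairs of rpl-36A and rpl-37.2, eef-1B.2, all stalk proteins and the intron clusters were named after their values were seen.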

Additional observations from a re-analysis of the deposited data

Results flagged for a closer look

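An unannotated cluster of 27 nt in intron 1 of rpl-8 held 101 reads and lies outside the exon clusters that the comparisons use. Its uniqueness value was 5, so the placement of its reads in rpl-8 is uncertain. The column of conversion events, which no comparison used, held 4 events in the sense exon clusters of the ribosomal protein genes. This is 0.817 per 1000 reads, and other genes had 145 events or 2.20 per 1000 reads. The members' rate rests on 4 events in 4 clusters, and the 145 events lie in 95 clusters. No interval was computed for these rates, and their difference was not tested.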

How the results depend on the processing

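The shares depend on how much weight the wide clusters receive. The ribosomal protein share of sense exon reads, 6.92%, was 1.72% with each cluster counted once, 0.972% in clusters of 18 to 26 nt, 6.34% without the leading cluster of each gene, 7.33% at a uniqueness of at least 10 and 6.67% with the members of the gene table only, an alternative chosen after seeing the data. The antisense share, 1.27%, was 8.33% with each cluster counted once, 15.2% in clusters of 18 to 26 nt, 1.64% in clusters without edits and 0.526% without the leading clusters. The share of the 10 leading members, 27.7%, was 22.98% with each cluster counted once, 36.1% in clusters of 18 to 26 nt and 32.2% without the leading clusters. The count on non-coding transcripts, 428 reads, was 54 clusters counted once, 49 reads in clusters of 18 to 26 nt and 34 without a coding exon. By construction these alternatives count fewer reads. The number of members with a sense read lay between 69 and 80 under all alternatives run, the ratio of the subunit medians between 0.75 and 1, and the share of single-sequence clusters at 21 to 23 nt between 28.2% and 30.7%. The comparison of the subunits per kb of coding length was not run. No replicate could be left out, as there is 1 library per group. No paired analysis was possible because the groups share no replicate of the same library kind and only the monophosphate library was analysed. Genes with under 10 reads are limited by depth.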
